A study of Homo sapiens with 6 samples.

Results

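Gene expression was described in 3 of the 6 RNA-seq libraries of the series, those made from SW620 cells after siRNA against OSBPL3. SW620 is an established human line grown from a lymph node metastasis of a colorectal adenocarcinoma. The 3 libraries were chosen by their titles, siOSBPL3 repeats 1 to 3, and are called si1, si2 and si3. The other 3 libraries came from cells of that line given a control siRNA (siNC). They were used only to check the target gene and to set the variance of simulated counts. No other agent or allele separates the groups in the labels. The dose, duration and number of siRNAs are not given in the sources used here. The labels do not say whether the repeats were separate cultures, so the spread among si1, si2 and si3 may be technical in part.

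OSBPL3 encodes ORP3, a member of the family of oxysterol-binding proteins, which carry lipids between membranes that lie close together. ORP3 is tethered to the endoplasmic reticulum by VAPA and VAPB and acts where that membrane meets the plasma membrane. A small interfering RNA guides cleavage of a matching transcript, so that its level, and not the gene, is affected. Epithelial cells also hold sensors of double-stranded RNA, which switch on interferons and, through these, the interferon-stimulated genes.

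Levels are given as CPM, counts per 1000000 on TMM-scaled library totals, with the mean ± SD over the 3 libraries where no single values are given. CPM does not account for transcript length, so levels of different genes were ranked as counts per kb of transcript, rescaled to the same sum in every library, and CPM served to follow a gene across libraries and to class it. A list of the 20 genes of highest CPM is given only beside that per kb. A gene is called on at a mean of 5 CPM or more, and silent where it had 3 counts or fewer over the 3 libraries together, which amounts to 0.027 CPM. Genes in neither class are called intermediate. Library totals were 34569895, 36437505 and 39701340 counts for si1, si2 and si3, and 17838 to 18042 genes had a count in a library. The 13 mitochondrially encoded genes took 7.80% to 7.97% of the counts and the cytosolic ribosomal protein genes 7.14% to 8.19%. No pair of the 3 libraries agreed within sampling noise, with chi-square per degree of freedom of 41.8 for si1 and si2, 48.9 for si1 and si3 and 18.4 for si2 and si3. This measure takes reads as independent and so covers counting error only.

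The target gene itself separated si1 from the other 2 libraries. OSBPL3, on chromosome 7 at 24796537 to 24981845 (GRCh38), had 1451, 446 and 599 counts in si1, si2 and si3. That is 41.3, 12.3 and 15.2 CPM, so that si1 held 1.56 more on the log2 scale than the mean of si2 and si3. On plain library totals, as a check of the labels, the 3 siNC libraries held 172 to 176 CPM of OSBPL3 and the siOSBPL3 libraries 12.2 to 42.0 CPM. OSBPL3 was therefore still on in every siOSBPL3 library. Of the 15 genes listed as family members and partners, 14 were on. VAPA, the endoplasmic reticulum tether, was at 189 ± 13.3 CPM, and OSBP, which moves cholesterol and phosphatidylinositol 4-phosphate, was at 103 ± 7.27 CPM. OSBPL8 was at 61.8, 77.9 and 100 CPM, lowest in si1. OSBPL6 was intermediate, at 1.57 CPM.

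Over the whole table, 10916 of 20729 gene symbols (52.7%) were on and 2722 (13.1%) were silent. Of the silent genes, 1284 had no count in any of the 3 libraries. At least 5 CPM in every library was reached by 10642 genes. Among the 15198 symbols that RefSeq gives as protein-coding, 69.2% were on and 7.36% silent, while of 4414 long noncoding RNA symbols 5.73% were on and 28.9% silent. The share of coding genes that were on ran from 61.0% on the X chromosome and 64.4% on chromosome 19 to 77.0% on chromosome 18. Most of the counts came from few genes: 95 genes of 1000 CPM or more held 24.5% of them, and 763 to 782 genes made up 50% of a library's counts.

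Ferritin and mitochondrial transcripts led the ranking. Per kb of transcript, FTH1, the heavy chain of the iron store ferritin, was the most abundant gene, at 29161, 24375 and 24833 counts per kb in si1, si2 and si3. FTL, the light chain, was at 16183 ± 1585 counts per kb. The 2 chains together took 2.05% to 2.53% of a library's counts, most in si1. The mitochondrial genes COX2, COX3 and COX1, subunits of cytochrome c oxidase, ranked directly after FTH1. COX2 was at 23935, 21743 and 21663 counts per kb, below FTH1 in each library. COX3 was at 21926, 21250 and 21969 counts per kb, below COX2 in si1 and si2 and above it in si3, so the order of these neighbours is not resolved. COX1 was below COX3 in each library, at 21292, 19166 and 18008 counts per kb.

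Among the other genes of the top 20 per kb were parts of the translation machinery (RPS2, RPLP1, RPS18 and EEF1A1), the actin-binding TMSB10, the calcium-binding TPT1 and the glycolytic enzyme GAPDH. ISG15, a ubiquitin-like protein made in answer to interferon, was also in it at 4180, 3703 and 3834 counts per kb, which lies close to RPS18 at 3886 ± 466. NQO1, a quinone reductase under NRF2, closed the list at 4818, 3356 and 3301 counts per kb and was highest in si1. The 20 genes of highest mean CPM shared 16 genes with this list. The 4 that stood only in the CPM list were HSPA8 and HSP90AA1, chaperones of the cytosol, ACTB, the cytoskeletal actin, and SQSTM1, a cargo receptor of autophagy. HSPA8 was the one gene of the CPM list with a spread above 2-fold, at 2162, 5178 and 4757 CPM.

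**Figure D1:**
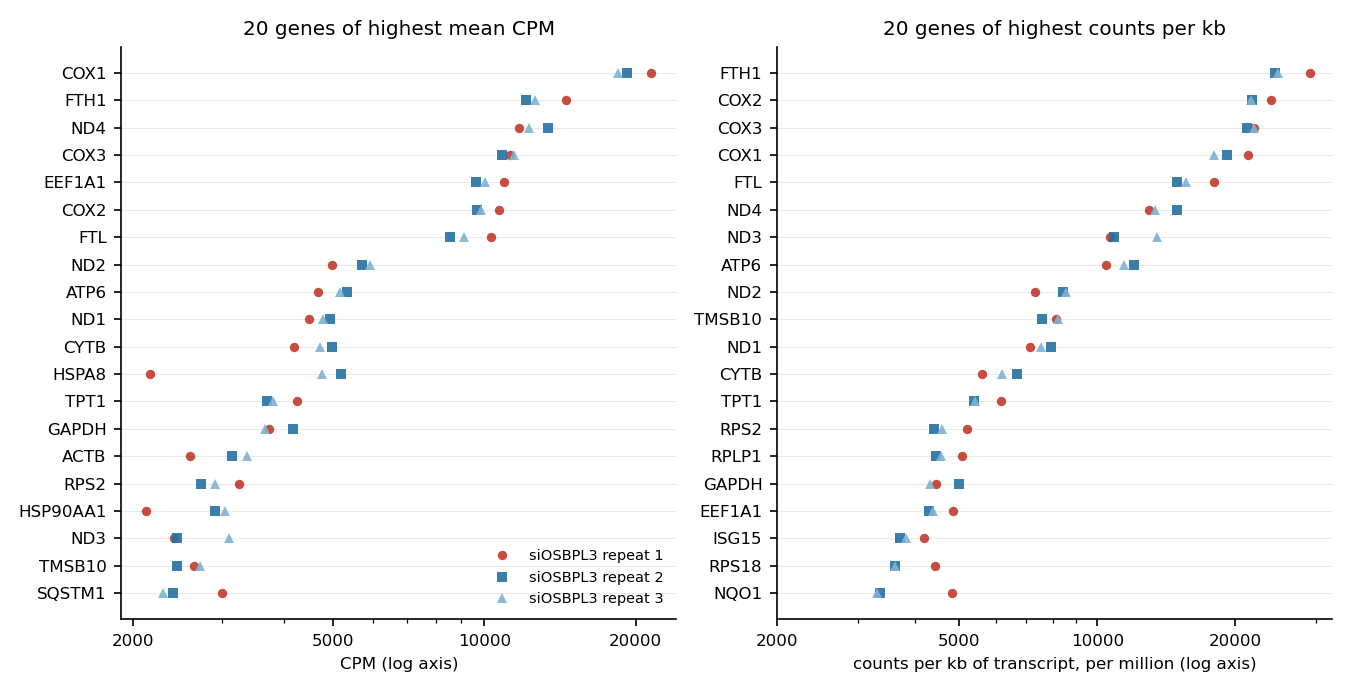
Each point is 1 siOSBPL3 library. The left panel shows CPM of the 20 genes with the highest mean CPM and the right panel counts per kb of the 20 genes highest on that scale, both on log axes. HSPA8 and HSP90AA1 lie apart in repeat 1, at 2162 and 2126 CPM.

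Lineage genes were next read against the label of a colorectal epithelial line. Of 20 listed intestinal transcription factors, 15 were on (75.0%, against 69.2% of coding genes), 4 intermediate and 1 silent. SOX9, a factor of crypt progenitors, was at 186, 145 and 152 CPM. KLF5, which supports crypt proliferation, was at 118, 116 and 121 CPM. CDX2, the master regulator of intestinal identity, was at 55.0, 73.5 and 64.8 CPM. These 3 factors were well above 5 CPM in each library, and none of the 15 factors that were on spread by 2-fold. HNF4A, a nuclear receptor of gut and liver epithelium, was at 39.6 ± 3.08 CPM, and FOXA1, a pioneer factor, at 49.4 ± 2.66 CPM. CDX1, the close relative of CDX2, had 4, 2 and 0 counts and so was barely above the silent limit. GATA4, which marks the proximal gut, had no count, while GATA6 was on at 29.7 CPM.

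Genes that mark stem, absorptive and goblet cells of the colon were divided. Of 18 listed surface and secretory markers, 7 were on (38.9%, against 69.2% of coding genes), 5 intermediate and 6 silent. Of coding genes 7.36% were silent. VIL1, the actin bundler of the brush border, was at 66.7, 63.5 and 60.3 CPM. CDH17, the intestinal cadherin, was at 45.4, 40.9 and 39.5 CPM. LGR5, the receptor that marks intestinal stem cells, was at 21.0 and 24.0 CPM in si1 and si2 and highest in si3. AGR2, a disulfide isomerase of secretory cells, was at 46.0 ± 1.65 CPM and CA2, a carbonic anhydrase, at 34.8 ± 3.53 CPM. LGALS4, a lectin of enterocytes, had the reverse order, with a difference of 0.98 for si1, and si2 and si3 at 7.83 and 5.93 CPM. KRT20, the keratin of mature colonocytes, had a mean of 0.037 CPM, GPA33, a surface antigen of colon epithelium, 0.182 CPM, and CEACAM5, the carcinoembryonic antigen, 0.368 CPM. FABP1, TFF3, REG4, GUCY2C and MEP1A each had 1 count over the 3 libraries, and OLFM4 none.

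Most of the listed epithelial genes were on. Of 32 listed genes, 26 were on (81.25%, against 69.2% of coding genes) and none was silent. GRHL1, KRT81, OVOL1, MUC1, CLDN1 and GRHL3 were intermediate, at means of 4.73, 4.04, 3.27, 3.25, 1.87 and 1.79 CPM. The keratins of simple epithelia KRT8 and KRT18 form one filament, and per kb their levels were 1959 and 1121. KRT8 was at 2774, 2329 and 2157 CPM and KRT18 at 1376, 1072 and 999 CPM, both highest in si1. The adhesion molecule EPCAM was at 741, 530 and 617 CPM, and the cadherin CDH1 at 210 CPM. Of 24 mesenchymal genes, 5 were on: S100A4, CAVIN1, TAGLN, CAV1 and ACTA2, the last of them above 5 CPM only in si1. S100A4, a calcium-binding protein also found in epithelial tumours, was at 371, 324 and 323 CPM. VIM, the intermediate filament of mesenchymal cells, was intermediate at 1.68 CPM. CDH2, SNAI2, COL3A1, LUM, DCN and THY1 were silent.

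Of 100 markers of other cell types in 15 lists, 19 were on and 19 silent, against 52.7% on and 13.1% silent over the whole table. No listed gene was on among 7 lung epithelial, 5 endothelial, 3 melanocytic and 4 cancer-testis genes. Among 16 blood cell markers only CD68, a lysosomal protein of macrophages, was on, at 8.06, 5.37 and 4.49 CPM, and it was below 5 CPM in si3. The mean of PTPRC, the common leukocyte antigen, was 0.109 CPM. ALB was silent with 2 counts, and of the 11 liver markers only SERPINA1, a secreted protease inhibitor, was on, at 54.0, 63.0 and 60.1 CPM. The other lists had 3 of 9 squamous, 3 of 7 prostate, 2 of 6 breast, 2 of 6 bladder, 2 of 5 neural, 2 of 3 muscle, 1 of 4 pancreas, 1 of 7 kidney and Mullerian and 1 of 7 pluripotency and germ cell markers on. Several of these genes are not restricted to 1 tissue. XBP1, a factor of secretory cells listed for breast, was at 290, 284 and 321 CPM, and SFN, a 14-3-3 protein of epithelia listed for squamous cells, at 191, 218 and 222 CPM. NES, an intermediate filament of neural progenitors, was at 35.3 ± 10.4 CPM, and TRIM29, listed for squamous cells, at 33.1 ± 4.70 CPM. DES, the filament of muscle, passed 5 CPM only in si1, at 7.24 CPM. The 38 listed HOX genes, which hold a cell's position along the body axis, had 14 members on and none silent. That is 36.8% on, against 69.2% of coding genes. The most abundant of these per kb were the neighbours HOXB6, HOXB9 and HOXB7, at 118, 105 and 103 counts per kb. HOXB9 was at 211, 174 and 151 CPM and HOXB6 at 169, 125 and 126 CPM, both highest in si1. Of 32 tumour suppressor and repair genes 30 were on (93.75%). CDKN2A, the locus of p16 and ARF, was at 0.13 CPM, and its neighbour CDKN2B was at 4.15 CPM.

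**Figure D2:**
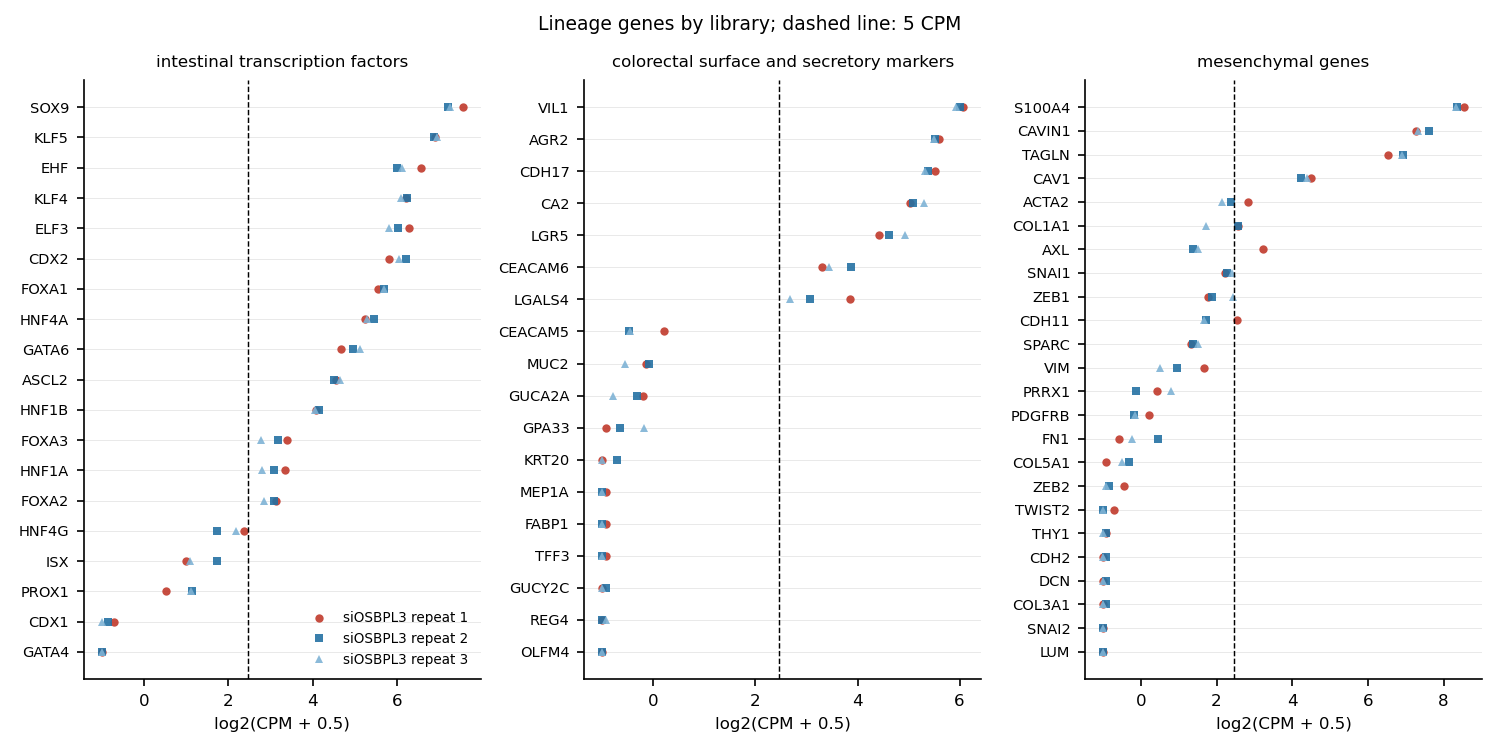
Points give log2(CPM + 0.5) in each siOSBPL3 library for listed intestinal factors (19 of the 20), colorectal markers and mesenchymal genes, and the dashed line lies at 5 CPM. SOX9 to FOXA2 and VIL1 to LGALS4 lie to the right of it in every library, and OLFM4, LUM and SNAI2 are at 0 counts.

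Most receptor families were on at shares near those of the whole table, 52.7% of symbols and 69.2% of coding genes. Wnt receptors lay above, at 87.5%, and none of 11 chemokine receptors was on. Of 46 receptor tyrosine kinases, 28 were on (60.9%) and 4 silent. EPHA2, an ephrin receptor that is an output of ERK signalling, was at 197, 193 and 177 CPM. DDR1, a collagen receptor of epithelia, was at 159, 143 and 119 CPM. MET, the receptor of hepatocyte growth factor, was at 125, 141 and 141 CPM. ERBB2 and EGFR, kin of each other and drug targets in bowel cancer, were at 74.7 ± 8.86 and 66.6 CPM. NTRK3, TIE1, TEK and ROS1 had 1 count each. Of 16 Wnt receptors and their regulators 14 were on. RNF43, a ligase that removes Wnt receptors from the surface, was at 150, 172 and 134 CPM. Of 14 receptors for TGF-beta and BMP ligands 9 were on, TGFBR2 at 151, 155 and 155 CPM, and BMPR1B was silent.

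Of 40 nuclear receptors, 22 were on (55.0%) and 3 silent. The orphan receptor NR2F6 was at 118 ± 7.83 CPM and the vitamin D receptor VDR at 69.6 ± 5.76 CPM. NR3C1, the glucocorticoid receptor, had a mean of 0.264 CPM. The bile acid receptor NR1H4 and the xenobiotic receptor NR1I3 had no count. Of 25 integrins 13 were on (52.0%). ITGB1, the common beta subunit, was at 212, 223 and 253 CPM, ITGA3 at 214 ± 27.6 CPM and ITGA6 at 140 ± 8.79 CPM, 2 laminin-binding alpha subunits. ITGA4, the partner that leukocytes use, had no count. Of 9 Notch receptors and ligands 5 were on, and NOTCH3 was at 23.4, 12.1 and 10.0 CPM.

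Of 31 interleukin and cytokine receptors 18 were on (58.1%). IL6ST, the shared signal chain of the interleukin-6 family, was at 112, 138 and 159 CPM. IL2RG, the common gamma chain best known from lymphocytes, was on at 59.3, 54.9 and 44.5 CPM. OSMR, a partner of IL6ST, was silent with 1 count. Of 28 members of the TNF receptor superfamily 16 were on, with the death receptor TNFRSF10B at 185, 175 and 169 CPM and the receptors TNFRSF1A and TNFRSF1B at 101 ± 9.06 and 146 ± 21.7 CPM. Of the 11 listed chemokine receptors none was on, 8 were intermediate, and CXCR4, CCR7 and ACKR3 were silent with 2, 0 and 3 counts. CCR10, a receptor for CCL28, was at 2.11 CPM.

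**Figure D3:**
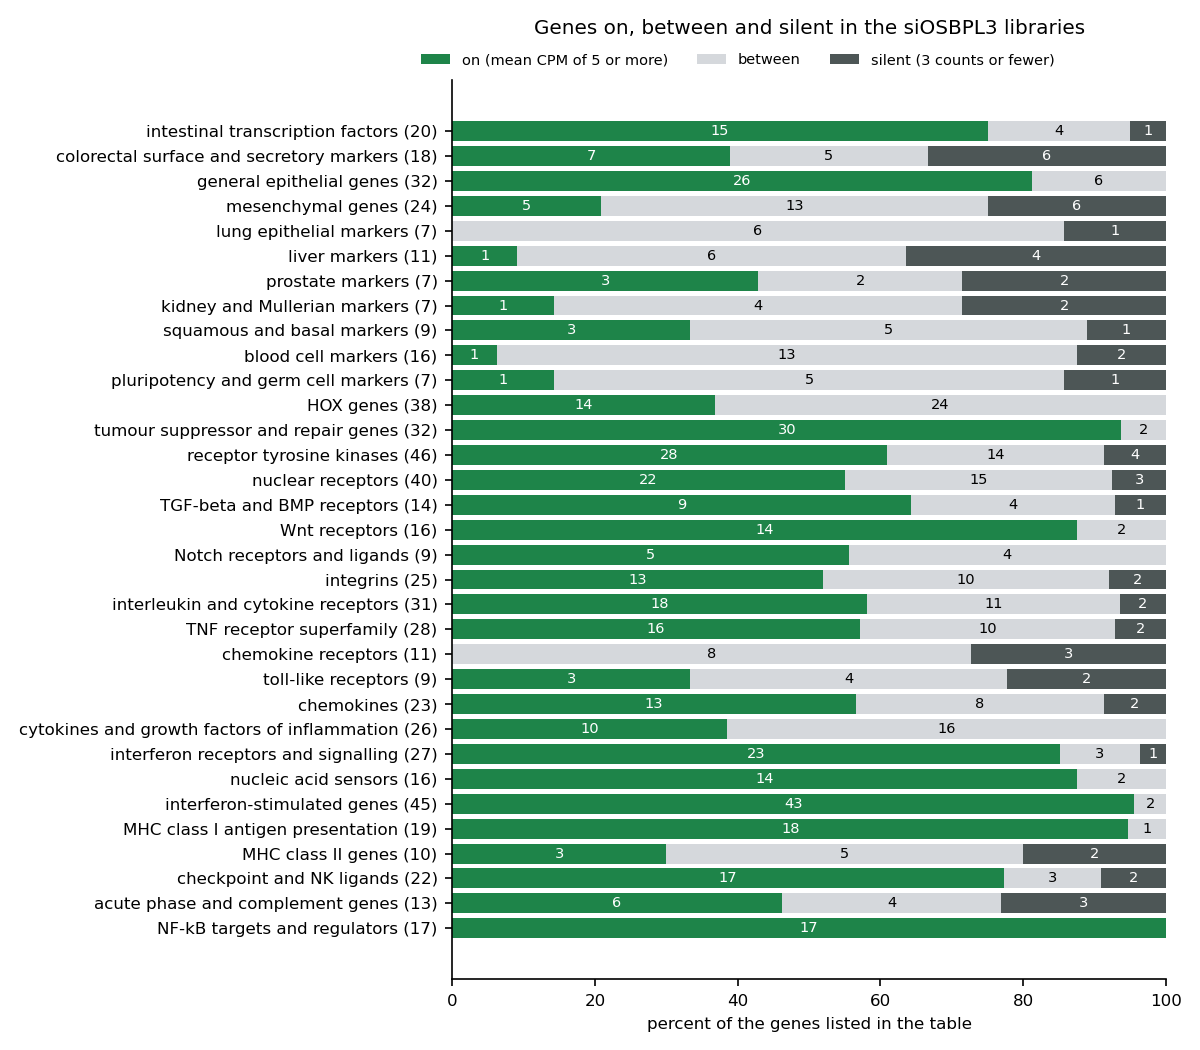
Bars give the percent of the listed genes of each list that were on, intermediate (named between in the key) or silent in the siOSBPL3 libraries, with the counts printed in the bars and the number listed in brackets. Interferon-stimulated genes (43 of 45) and NF-kB genes (17 of 17) were on almost throughout, and chemokine receptors (0 of 11) were not.

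The chemokines themselves were on in 13 of 23 cases (56.5%), against 69.2% of coding genes. CXCL5, a neutrophil attractant, was at 918, 909 and 1114 CPM. CCL5, a T cell attractant, was at 592, 854 and 806 CPM, lowest in si1. CX3CL1, the membrane-bound fractalkine, was at 255, 210 and 154 CPM, highest in si1. CXCL10, which attracts activated T cells and is induced by interferon, was at 30.6, 128 and 148 CPM. The neutrophil attractants CXCL1, CXCL2, CXCL3 and CXCL8 were on as well, CXCL3 at 96.0 ± 6.77 CPM and CXCL8 at 77.1 CPM. CXCL6 and XCL1 had no count. Of 26 cytokines of inflammation 10 were on and none silent, with IL32 at 208, 294 and 304 CPM, and TNF was intermediate at 4.06 CPM. All 17 NF-kB targets and regulators were on, among them the inhibitor NFKBIA at 214 ± 19.3 CPM. SOD2, the mitochondrial superoxide dismutase, was at 273, 354 and 409 CPM.

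Most listed sensors, signalling genes and targets of the interferon system were on, while most listed interferon genes were not. Of 16 nucleic acid sensors and their adaptors 14 were on (87.5%, against 69.2% of coding genes). RIGI (DDX58 in the table), which binds the ends of double-stranded RNA, was at 160, 214 and 225 CPM. IFIH1, which binds long double-stranded RNA, was at 108, 170 and 169 CPM. EIF2AK2, the kinase PKR, was at 124, 137 and 140 CPM. ZBP1, a sensor of left-handed nucleic acids, had a mean of 0.045 CPM and IFI16, a DNA sensor, of 2.49 CPM. Of 5 listed interferon genes only IFNL1, a type III interferon of epithelia, was on, at 9.69, 13.2 and 15.2 CPM. IFNB1 was intermediate at 1.71 CPM and IFNL2 and IFNL3 at 0.379 and 0.598 CPM. Of 27 receptors and signalling genes 23 were on (85.2%), with IFNGR1 at 487, 419 and 453 CPM. IRF4, of lymphoid cells, was silent.

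Of 45 interferon-stimulated genes, 43 were on, set against 52.7% of all symbols and 69.2% of coding genes. ISG15 was at 1944, 1713 and 1813 CPM. IFIT1, which binds viral RNA caps, was at 815, 1148 and 1139 CPM, and IFIT3 at 619, 972 and 833 CPM. IFITM3, which blocks viral fusion, was at 773, 867 and 840 CPM. TRIM22 and GBP2 were the 2 members not on, at 2.06 and 1.67 CPM. Antigen presentation by MHC class I was on in 18 of 19 genes. The heavy chain HLA-B was at 1460 ± 152 CPM, though reads of HLA genes may be shared between loci, and B2M, the light chain, was at 526, 534 and 584 CPM. HLA-G was the exception, at 0.180 CPM. MHC class II was on in 3 of 10 genes: CD74, the invariant chain, HLA-DMA and HLA-DQB1. CD74 was at 110, 116 and 94.1 CPM, whereas the antigen-presenting chain HLA-DRA was at 0.601 CPM.

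Interferon-stimulated genes carry a short element in their promoters that the interferon-activated factor complex binds. RefSeq promoters (GRCh38.p14, 250 bases before to 50 after the annotated start) were searched on both strands for the core GAAANNGAA, which reads TTCNNTTTC on the other strand. The core was found in 28 of the 37 promoters in hand for interferon-stimulated genes that were on (75.7%), against 8.29% of 27305 promoters in all and 6.38% of the 8920 promoters of genes on. Stretches around the core are shown for ISG15 and IFIT1, whose levels are given above, and for CXCL10, which set si1 apart. Each is written on the strand of its gene, with the core in capitals. The ISG15 stretch lies at chr1:1013354-1013434 on the plus strand, and its first match begins at -113 from the start. That of IFIT1 lies at chr10:89392478-89392559 on the plus strand, with its first match at -115. That of CXCL10 lies at chr4:76023680-76023747 on the minus strand, with its match at -221. CXCL11 and UBD, searched in the same way and also low in si1, had no match. A match is a description of letters and not of a bound factor.
ISG15: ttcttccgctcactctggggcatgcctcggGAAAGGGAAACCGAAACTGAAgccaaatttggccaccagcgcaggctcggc
IFIT1: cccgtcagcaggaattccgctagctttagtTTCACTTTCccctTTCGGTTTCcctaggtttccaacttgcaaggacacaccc
CXCL10: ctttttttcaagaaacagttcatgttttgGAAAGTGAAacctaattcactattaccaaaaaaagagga

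Surface ligands for immune cells and acute phase genes were mixed. Of 22 checkpoint and natural killer ligands 17 were on (77.3%, against 69.2% of coding genes). CD59 and CD46, which shield cells from complement, were at 250 ± 45.8 and 173 ± 12.8 CPM, and CD47, the signal against phagocytosis, at 103, 97.8 and 118 CPM. The costimulators CD80 and CD86 had no count. CD274, the ligand PD-L1, was at 7.04, 3.85 and 4.92 CPM, so it passed 5 CPM only in si1. Of 13 acute phase and complement genes 6 were on (46.2%) and 3 silent. LCN2, an iron-scavenging acute phase protein, was at 1267, 718 and 707 CPM. Of 9 toll-like receptors 3 were on (33.3%), TLR3 at 17.6, 9.80 and 10.1 CPM, and TLR4 was silent with 1 count.

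The listed replication, mitosis and NRF2 genes were all on, against 69.2% of coding genes, while most replication-dependent histone genes were not. All 27 genes of S phase and replication and all 24 of mitosis were on, with the ribonucleotide reductase subunit RRM2 at 522, 683 and 724 CPM and the mitotic topoisomerase TOP2A at 286, 299 and 295 CPM. All 25 listed NRF2 antioxidant genes were on, among them the thioredoxin reductase TXNRD1 at 1329, 1308 and 1274 CPM. MYC was at 255, 266 and 253 CPM and CCND1, cyclin D1, at 400, 439 and 408 CPM. Of 37 replication-dependent histone genes 2 were on (5.41%), H2BC12 and, at 5.03 CPM, H1-2. The mRNAs of this class carry no poly(A) tail as a rule. AFAP1-AS1, an antisense RNA often high in tumours, was at 320, 426 and 342 CPM. The strand setting is not given, so its reads may not be separated from those of AFAP1.

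Spread among the 3 libraries was then measured. For genes on, the median coefficient of variation was 10.5%, while counting error alone gives a median of 2.68%. The highest library was at least 1.5 times the lowest in 1107 genes and at least 3 times in 26. At 2-fold, 157 of 10916 genes (1.44%) spread. Of the 157, 71 lay between 5 and 10 CPM and 1, HSPA8, above 1000 CPM. Over the genes on, Pearson correlations of log2 values were 0.982 for si1 with si2, 0.978 for si1 with si3 and 0.990 for si2 with si3, as a description over 10916 genes that share the 3 libraries and their depths.

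The library si1 carried most of this spread. Taking the 3 libraries in turn as the odd one out, the share of the sum of squares along that library's axis was 70.9% for si1, 34.0% for si2 and 45.2% for si3. These 3 axes overlap, so the shares do not add to 100. In 141 of the 157 genes that spread by 2-fold (89.8%), si1 lay farthest from the other 2 libraries, against 44.3% of all genes on. In 133 of the 157 it was the highest library and in 22 the lowest. Without si1, 3 genes spread by 2-fold between si2 and si3. They were CD99, NOMO3 and IL17RD.

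Called at a difference of at least 1 on the log2 scale with si1 outside the other 2 libraries, 74 genes (0.678%) were higher in si1 and 11 (0.101%) lower. The same rule for si2 gave 2 genes higher (0.0183%) and 4 lower (0.0366%), and for si3 1 higher (0.00916%) and 12 lower (0.11%). At 1.5-fold, 386 genes (3.54%) were higher in si1 and 114 (1.04%) lower. Direction without a size is a weaker guide: si1 was the highest of the 3 libraries in 3735 genes (34.2%) and the lowest in 4494 (41.2%), and its median difference was -0.03. In 53 genes that were on, both si2 and si3 were under 5 CPM, and these genes owe their class to si1.

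**Figure D4:**
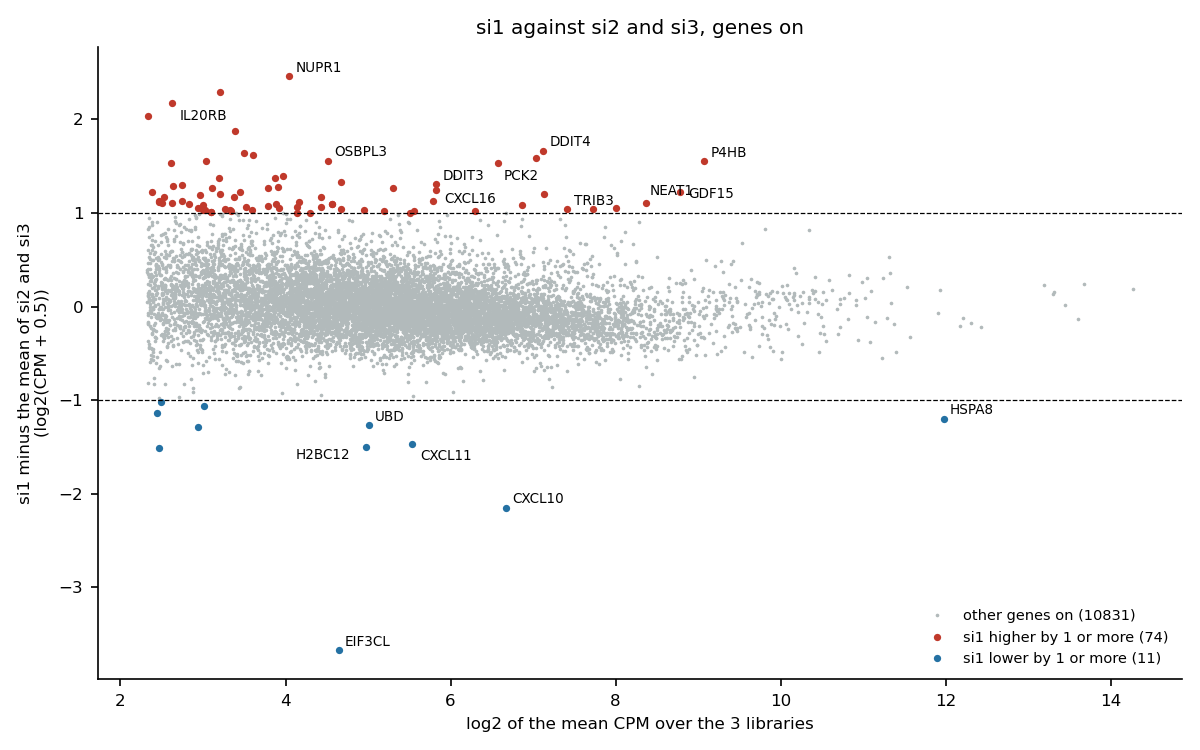
Each point is 1 of 10916 genes that were on. The horizontal axis is log2 of the mean CPM and the vertical axis the log2 difference of si1 from the mean of si2 and si3, with dashed lines at 1 and -1. The 74 genes in red lie above and the 11 in blue below, with EIF3CL lowest at -3.68 and NUPR1 highest at 2.47.

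The 12 genes highest in si1 were led by NUPR1. NUPR1, a small nuclear protein induced by cell stress, was at 36.9, 5.81 and 6.75 CPM. DDIT4, an inhibitor of the kinase mTORC1, was at 257, 80.4 and 80.8 CPM. NIBAN1, a regulator of translation under stress, was at 22.6, 6.73 and 7.33 CPM. All 3 had si2 and si3 close together and si1 alone above them. P4HB, a disulfide isomerase of the endoplasmic reticulum, was at 957, 369 and 288 CPM. The related isomerase PDIA3 was at 764, 790 and 810 CPM, lowest in si1. S100P, a calcium-binding protein common in gut tumours, was at 238, 83.2 and 74.0 CPM. PIP5KL1, a lipid kinase relative, was at 20.3, 4.01 and 3.45 CPM, and the Ras-interacting RASIP1 at 14.9, 5.81 and 3.83 CPM. FAM83E was at 20.8, 8.14 and 4.94 CPM and SLC26A9-AS1, an antisense gene, at 20.7, 5.23 and 5.33 CPM. The strand setting is not given, so reads of SLC26A9-AS1 may not be separated from those of its partner. IL20RB, a receptor chain for interleukin-20, had 13.3, 2.71 and 2.41 CPM, and SERPINA3, an acute phase protease inhibitor, 10.7, 2.33 and 2.10 CPM. These last 2 genes were on only through si1. OSBPL3 itself was the tenth of the 12.

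Among the 12 genes lowest in si1 were 3 chemokine genes, CXCL10, CXCL11 and CCL4L2. CXCL10 differed by -2.15 on the log2 scale from the mean of si2 and si3. CXCL11, its neighbour on chromosome 4 with the same receptor, was at 21.1, 56.9 and 61.4 CPM. UBD, a ubiquitin-like protein induced by interferon-gamma and TNF, was at 16.4, 39.6 and 40.7 CPM. CCL4L2, which may share reads with its near-identical copy CCL4, was at 2.19, 6.89 and 7.48 CPM. HSPA8, shown above, differed by -1.20. H2BC12, a histone gene, was at 13.9, 36.2 and 44.6 CPM. CYP1A1, the enzyme induced through the aryl hydrocarbon receptor, was at 3.16, 7.09 and 6.31 CPM, APLN, a vessel growth peptide, at 2.79, 6.81 and 6.67 CPM, and FAM222A at 3.65, 10.9 and 8.55 CPM. LOC107984018 and LINC02701 are noncoding and were at means of 8.04 and 5.60 CPM.

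EIF3CL, at 2.36, 40.1 and 32.5 CPM, was the lowest in si1 of all. It is a near-identical copy of the translation factor gene EIF3C, and reads may be divided between the 2 copies in counting. EIF3C was at 19.2, 28.2 and 16.4 CPM, and the part of such a division in these values was not tested. In the same way NOMO3, one of a set of near-identical copies, was at 4.64, 7.34 and 3.20 CPM. CD99, a surface glycoprotein of the pseudoautosomal region, set si3 apart, at 80.2, 110 and 8.06 CPM, and its counts were 2814, 3967 and 318. For si2 the lowest genes after NUPR1 were IL17RD, a receptor that dampens FGF signalling, at 12.5, 3.60 and 7.40 CPM, NBR2 at 14.3, 4.51 and 7.07 CPM, and CCL28, a mucosal chemokine, at 10.5, 3.24 and 4.92 CPM. In these 3 genes si1 was again the highest library.

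Genes of the ATF4 pathway were nearly all highest in si1. ATF4 is the transcription factor of the integrated stress response, in which phosphorylation of eIF2 slows general translation and favours genes of amino acid supply and stress repair. This list was written after values had been seen, so its counts describe these libraries and give no independent support. Of its 48 members 42 were on. In 40 of the 42 si1 was the highest library, against 34.2% of all genes on, and in none was it the lowest. The median difference of si1 was 0.60, against -0.03 over all genes on. At 1.5-fold 21 of the 42 were higher in si1, against 3.54% of all, and at 2-fold 12 were.

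ATF4 itself was at 988, 632 and 606 CPM. DDIT3, the factor CHOP that acts downstream of it, was at 94.6, 39.0 and 36.7 CPM, and TRIB3, a pseudokinase that restrains it, at 260, 133 and 120 CPM. CHAC1, which degrades glutathione, was at 64.8, 28.3 and 25.1 CPM. GDF15, a secreted stress hormone, was at 709, 300 and 308 CPM. PCK2, the mitochondrial enzyme that makes phosphoenolpyruvate, was at 169, 65.3 and 51.4 CPM, and PHGDH, the first enzyme of serine synthesis, at 323, 169 and 145 CPM. In each of these genes si1 lay above both other libraries and si2 lay near si3. The amino acid carriers SLC7A5 and SLC3A2, which pair at the membrane, were at 711, 579 and 480 CPM and at 677, 494 and 468 CPM. The aminoacyl-tRNA synthetase GARS1 was at 456, 326 and 307 CPM. ASNS, asparagine synthetase and a classical target of ATF4, was not on, at 1.65, 0.332 and 0.964 CPM, and CBS had no count.

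The list of the unfolded protein response as a whole did not share this pattern. Of its 24 genes that were on, si1 was highest in 9 and lowest in 8, against 34.2% and 41.2% of all genes on. Their median difference was -0.03. That list contains ATF4, DDIT3, CHAC1 and TRIB3, which are in the list above as well, so its counts do not isolate the other arms. The chaperone HSPA5, the main marker of stress in the endoplasmic reticulum, was at 1243, 1285 and 1300 CPM. HSP90B1, another chaperone there, was at 1825, 1689 and 1727 CPM, and CALR at 1614, 1723 and 1578 CPM.

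The element that ATF4 binds together with CEBP factors was searched as TGATGNAA, which reads TTNCATCA on the other strand. It was found in 9 of 35 promoters of listed ATF4 genes that were on (25.7%), against 3.67% of all 27305 promoters and 1.52% of the promoters of genes on. Among the 61 promoters of genes at least 2-fold higher in si1 it was found in 4 (6.56%). It was not found for DDIT3, TRIB3, GDF15, PCK2, PHGDH, DDIT4 or NIBAN1, which were all highest in si1. The window holds only 250 bases before the start, and no match says only that the letters are not in it. Stretches are shown for CHAC1, which differed by more than 2-fold, and for AARS1, the alanyl-tRNA synthetase, which was at 169, 109 and 93.1 CPM. They lie at chr15:40953232-40953299 on the plus strand with the match at -209 from the start, and at chr16:70289656-70289723 on the minus strand with the match at -187. Both are on the gene's strand, with the element in capitals.
CHAC1: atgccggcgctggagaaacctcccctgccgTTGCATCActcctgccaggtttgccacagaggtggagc
AARS1: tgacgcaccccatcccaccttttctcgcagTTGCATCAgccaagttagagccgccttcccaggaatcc

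Chaperones of the cytosol and replication genes lay on the other side. The heat shock list was also written after values had been seen, with the same limit. Of 25 members that were on, si1 was the lowest library in 21, against 41.2% of all genes on, and the median difference was -0.46. HSP90AA1 was at 2126, 2908 and 3042 CPM, HSP90AB1 at 1839, 2665 and 2724 CPM, and DNAJA1, the co-chaperone of HSPA8, at 203, 349 and 383 CPM. HSPA9, the chaperone of the mitochondrial matrix, was nearly level at 745, 789 and 780 CPM. HSPA1B, the inducible HSP70, was at 98.9, 176 and 163 CPM, and it may share reads with its copy HSPA1A.

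Of 27 S phase and replication genes si1 was lowest in 23, against 41.2% of all genes on, with a median difference of -0.39. This list and those below were chosen with earlier results of these data known. MCM4, a subunit of the replicative helicase, was at 180, 307 and 312 CPM, and MCM6 at 120, 198 and 191 CPM. CCNE2, cyclin E2, was at 34.4, 53.7 and 67.9 CPM, and PCNA, the sliding clamp, at 421, 559 and 649 CPM. For 24 genes of mitosis si1 was lowest in 21, at a smaller median of -0.19, and BUB1, of the spindle checkpoint, was at 88.0, 124 and 114 CPM. The replication-dependent histone H2BC12 lay in the same direction. Fewer cells in S phase and less of these RNAs per cell cannot be told apart in bulk libraries.

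**Figure D5:**
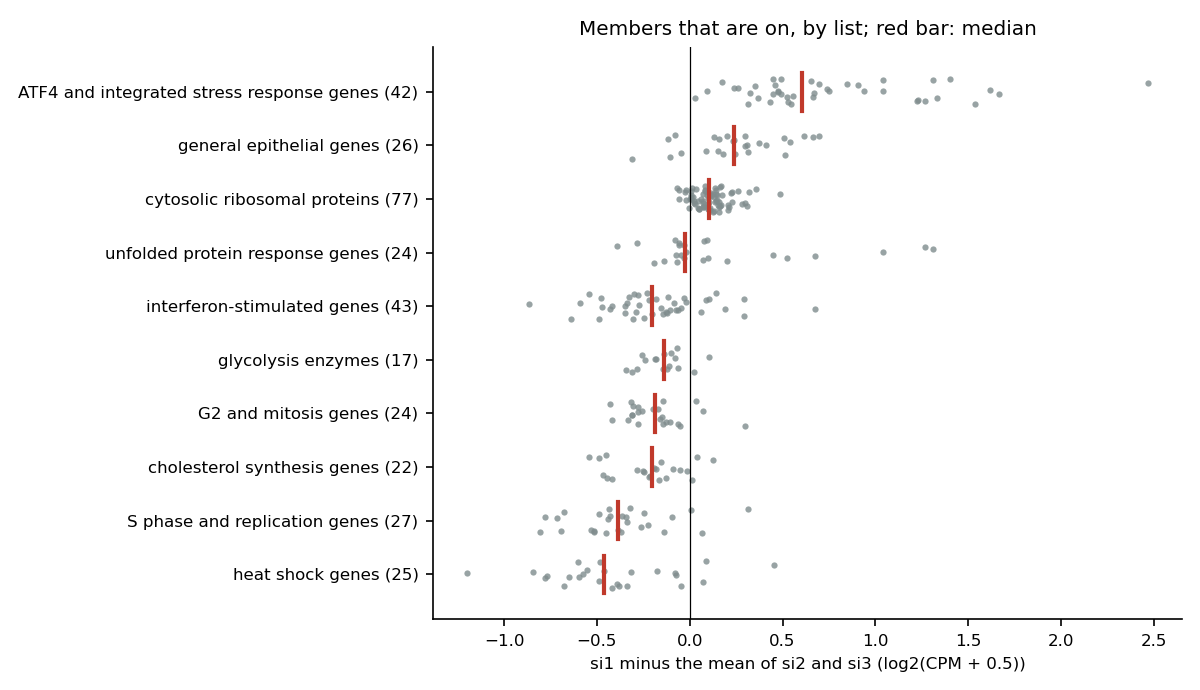
Each grey point is a listed gene that was on, placed by the log2 difference of si1 from the mean of si2 and si3, with the number of genes in brackets and the median as a red bar. Medians of the 10 lists shown run from 0.60 for 42 ATF4 genes to -0.46 for 25 heat shock genes.

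Smaller differences ran through other lists. Over all genes on, si1 was lowest in 41.2% and highest in 34.2%, with a median of -0.03. Of 43 interferon-stimulated genes si1 was lowest in 30, with a median of -0.20. GBP4, a guanylate-binding protein, was at 6.84, 11.7 and 14.2 CPM, and RSAD2, the antiviral enzyme viperin, at 163, 244 and 245 CPM. IFI35 lay the other way, at 36.8, 23.1 and 22.6 CPM. Of the nucleic acid sensors that were on, si1 was lowest in 10 of 14. Of 22 cholesterol synthesis genes si1 was lowest in 16 and highest in none. SQLE, squalene epoxidase, was at 44.6, 60.7 and 70.0 CPM. Of 17 glycolysis enzymes it was lowest in 12 and highest in none, LDHA being at 783, 1021 and 967 CPM.

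Of 77 ribosomal protein genes si1 was highest in 57, against 34.2% of all genes on, at a median of only 0.10. RPS27 was at 851, 588 and 627 CPM. Of 26 epithelial genes it was highest in 20, with a median of 0.24, and the tight-junction gene CLDN7 was at 265, 169 and 165 CPM. Of 6 acute phase genes it was highest in 5, but SERPINA3 was on only through si1. C3, the central complement protein, was at 76.0, 51.0 and 41.0 CPM. The glucose carrier SLC2A1 was at 1824, 1103 and 966 CPM and VEGFA, the vascular growth factor, at 146, 79.3 and 75.3 CPM, yet the median over 16 hypoxia genes was 0.10. NEAT1, the RNA scaffold of paraspeckles, was at 513, 236 and 239 CPM. CXCL16, a membrane-bound chemokine, was at 92.1, 41.0 and 36.4 CPM, opposite in direction to CXCL10. ULBP1, a ligand of the natural killer receptor NKG2D, was at 27.0, 9.36 and 10.5 CPM. AREG, a ligand of EGFR named here after its value was seen, was at 393, 184 and 195 CPM.

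In the 14 HOX genes that were on, si1 was highest in 10 and lowest in 3, with a median of 0.23. Over all genes on, it was highest in 34.2% and lowest in 41.2%. The 15 intestinal factors on had si1 highest in 6 and lowest in 5, with a median of -0.01. The 28 receptor tyrosine kinases had it highest in 13 and lowest in 10, and the 17 NF-kB genes highest in 6 and lowest in 6. OSBPL3, like most of the ATF4 genes, was highest in si1, but 3 libraries allow no test of whether they are linked. GC content moved with the libraries as well: over the 10847 genes on with a length and GC value, the Spearman correlation of the difference with transcript GC was 0.186 for si1, 0.307 for si2 and -0.493 for si3, a description across genes. After a smooth correction for GC and length the median of the ATF4 genes was 0.59 and that of the heat shock genes -0.43. RNA quality and batch are not given for these libraries, and their part in the difference of si1 was not tested.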

How the data were processed

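The table the authors deposited holds whole-number counts of reads for each gene symbol, not normalized. HISAT2 2.2.1, HTSeq 0.13.5 and GRCh38 were used, per the submitters' processing notes. The annotation and strand setting are not given in the sources used here. Reads of overlapping or near-identical genes may therefore be lost or divided. Library groups follow the sample titles. Counts of the 3 siOSBPL3 libraries were scaled by TMM (edgeR 4.0.16, R 4.3.3) and turned into CPM, and differences use log2(CPM + 0.5). Lengths are median GENCODE 29 transcripts, matched for 84.2% of 20729 symbols. The difference of a library is its log2 value minus the mean of the other 2, called at 1 or more with that library outside them, and no p-value was computed. The calling was tried on simulated counts drawn at the siNC dispersion (variance beyond counting), 0.00151. That of the siOSBPL3 libraries was 0.0256, so the trial does not measure false calls in them. The 61 lists hold 1454 entries, 1260 of them listed in the table, 1 through an older symbol. The members and lists were chosen with earlier results of these data known, and 2 lists were added after values were seen. Genes are named by rank: the top 20 by each scale, the 12 highest and lowest for si1 and 4 for si2 and si3, and up to 5 on, 5 silent and 4 most different per list, with short or identity lists free. Unlisted symbols are not analysed here, and a few listed genes are not reported here. Alternatives covered scaling, pseudocount, filters, thresholds, GC correction (mgcv 1.9.3) and leaving out each library.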

Additional observations from a re-analysis of the deposited data

How the results depend on the processing

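The number of genes on stayed within 1.5 times of 10916 under every alternative run, from 9786 at 10 CPM to 13015 at 1 CPM. Leaving out a library gave 10851 to 10956. Silent genes numbered 1284 with no count allowed and 4301 with up to 10 counts allowed, and 3274 to 3400 when 1 library was left out. Genes that spread by 2-fold numbered 6197 with no filter, 704 at 1 CPM, 46 at 20 CPM, 1107 at 1.5-fold and 26 at 3-fold. They numbered 3 to 137 when 1 library was left out, the lowest without si1. The si1 calls (85, with 74 above and 11 below) became 314 (275 above, 39 below) with no filter, 196 (170 and 26) at 1 CPM and 500 (386 and 114) at 1.5-fold. They numbered 91 without si3 and 115 without si2, and 68 and 66 of the 85 genes were among these. After the correction for GC and length 71 were called, 68 of them shared. Filters and fold thresholds leave a gene's own difference as it is. Of 194 values of 29 named genes under the other alternatives 193 moved by less than 1 SD over the libraries. The other was CD99, whose si1 difference became -0.45 without si3 and was 3.24 without si2. That SD is taken over si1, si2 and si3 and grows with the difference of si1 itself, so it is a lenient limit. Within it, NOMO3 went from -0.06 to -0.61 without si3, and IL17RD from 1.19 to 0.72 without si2. No paired analysis was possible because only libraries of one group were described. With up to 39701340 counts, a silent gene may still hold a few transcripts below 0.027 CPM.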

Other observations

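Some genes of high expected abundance had few counts, and these were chosen after their values were seen. RPL36A was at 0.565 CPM, RPS10 at 11.1 CPM and RPL17 at 25.5 CPM, while the median of the ribosomal protein genes on was 949 CPM. ATP5F1E, a subunit of ATP synthase, was at 1.70 CPM, and ALDOA, a glycolytic enzyme, at 5.85 CPM. RefSeq (GRCh38.p14) gives spans that overlap each of them: RPL36A-HNRNPH2, RPS10-NUDT3, RPL17-C18orf32, SLMO2-ATP5E and LOC112694756, and their part in these values was not tested.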
